A study of Mus musculus with 6 samples.

Results

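The genes described here are the mouse solute carriers, the genes whose symbols begin with Slc and a family number, in bone marrow cells sorted for the macrophage surface protein F4/80 and for eGFP from an Epor reporter. A gene was a member when its symbol matched that pattern, and Slc40a1, Slc11a1, Slc48a1, Slc2a1, Slc2a3 and Slc4a1 were left out, which gave 190 of the 11489 genes in the deposited table. Of these, 31 carry amino acids or peptides, 24 carry metals, 5 carry nucleosides or nucleobases, 38 belong to the mitochondrial family Slc25, and 92 fall into other substrate classes. The last class includes 5 symbols that do not name a transporter, such as the scaffold protein gene Slc9a3r1.

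RNA was measured by sequencing in 3 libraries of F4/80+Epor-eGFP+ cells and 3 libraries of F4/80+Epor-eGFP- cells, all from mouse bone marrow and all sorted by flow cytometry. The labels name the reporter Epor-eGFP and do not say how it was built, and Epor is the gene of the erythropoietin receptor. The labels give the cell type of both groups as macrophages of erythroblastic islands, the clusters in which a central macrophage is surrounded by maturing red cell precursors. They give no strain, age, sex or treatment, and nothing in them says whether each library came from its own animals, so the p-values reflect library-to-library spread that may be technical only. Libraries are called here by the numbers 0, 1 and 2 of their columns.

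Solute carriers are membrane proteins that move small molecules down or against a gradient, either through the plasma membrane or through the membranes of lysosomes, mitochondria and other organelles. Many work as exchangers or as cotransporters with sodium or protons, so uptake of a substrate is tied to another ion or metabolite. In the erythroblastic island, macrophages take up the nuclei expelled by erythroblasts and recycle their contents, while the developing red cells import iron, amino acids and nucleosides and send glycine into mitochondria for heme synthesis.

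The table holds FPKM, which are fragment numbers scaled to gene length and to the size of the library. They sum to between 467176 and 519650 per library, and the read depth of the libraries is unknown. Markers of several cell types differed between the groups. The 9 genes of an island macrophage list summed to 2899, 1757 and 6466 FPKM in Epor-eGFP+ libraries 0, 1 and 2, against 142, 106 and 102 FPKM in the Epor-eGFP- libraries, and all 9 rose. The 10 erythroid genes in the table summed to 631, 341 and 981 FPKM in Epor-eGFP+ libraries, against 44.5, 31.1 and 369 FPKM in Epor-eGFP- libraries, and 7 rose (10 with the library number as a replicate block). The globin genes Hba-a1 and Hba-a2 carried much of that sum, and the other 8 erythroid genes summed to 322, 243 and 236 FPKM in Epor-eGFP+ libraries, against 21.1, 18.3 and 22.2 FPKM in Epor-eGFP- libraries. All 4 promyelocyte genes rose, while all 8 neutrophil genes, with sums of 13130 to 17070 FPKM in Epor-eGFP+ libraries, against 24517 to 38749 FPKM in Epor-eGFP- libraries, and all 6 monocyte genes fell. Of the 6 osteoclast genes, 3 of the 4 tested rose (with the block, 3 rose and 1 fell), and of 6 eosinophil genes 1 rose and 3 fell. Zeros were listed for Prg2 in Epor-eGFP+ library 0, for Lyz2 in Epor-eGFP- library 2 and for Dcstamp in Epor-eGFP- libraries 0 and 2. The other Epor-eGFP- libraries held 10411 and 10692 FPKM of Lyz2, and the other Epor-eGFP+ libraries 10348 and 11088 FPKM of Prg2. These zeros enter the fits of both genes, with standard errors of 3.39 for Lyz2 and 3.40 for Prg2, so their missing calls say little. Among the 5 tested members of a general macrophage list, 0 were called by limma without the block, while 2 rose and 1 fell with it, at adjusted p of 0.00938 (Cd68, higher), 0.0168 (Fcgr1, higher) and 0.0145 (Csf1r, lower). Its member Adgre1, which encodes F4/80, stood at 143, 117 and 241 FPKM in Epor-eGFP+ libraries compared with 136, 132 and 139 FPKM in Epor-eGFP- libraries. In bulk RNA, fewer cells of a type and less RNA per cell cannot be told apart, and the part of these cell types in the differences below was not tested.

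More solute carrier genes were higher than lower in Epor-eGFP+ cells. Testing with limma took in every gene with a mean of 1 FPKM or more and was run on log2(FPKM + 1). It covered 178 members and left out 12. With Benjamini-Hochberg adjustment over all 10964 tested genes and a threshold of 0.05, 51 members (28.7%) were higher, where 22.7% of all tested genes were higher. A further 29 members (16.3%) were lower, where 26.3% of all tested genes were lower, and 98 members had no call. The median difference was 0.11 for the tested members and −0.01 for all tested genes, on the log2(FPKM + 1) scale and as Epor-eGFP+ minus Epor-eGFP-, the scale and direction of every log2 difference given here. The value after ± beside a log2 difference is its standard error. With all libraries rescaled to a common total, 3053 genes of the whole table were higher and 2082 lower, where the values as deposited gave 2489 higher and 2883 lower. On that scale, 61 members were higher and 22 lower.

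Large differences lay mainly on the higher side. A log2 difference of at least 1 was reached by 24 of the 51 higher members and by 4 of the 29 lower members. These are 13.5% and 2.25% of the 178 tested members, where 4.92% of all tested genes were higher and 4.39% lower by as much. The values of the 3 Epor-eGFP+ libraries did not overlap those of the 3 Epor-eGFP- libraries for 97 members (54.5%), where 60.4% of all tested genes did not overlap. Summed over all 190 members, the table held 3258, 3073 and 3525 FPKM in Epor-eGFP+ libraries, against 2916, 2909 and 3042 FPKM in Epor-eGFP- libraries. That sum made up 0.685 ± 0.0242% of all FPKM in Epor-eGFP+ libraries, against 0.575 ± 0.0139% in Epor-eGFP- libraries (SD, n = 3 each). Without Epor-eGFP+ library 0 the higher and lower members numbered 37 and 22, and without Epor-eGFP- library 0 they numbered 38 and 21. Calls dropped over the whole table in the same fits. There, 1634 genes were higher and 2057 lower without Epor-eGFP+ library 0, and 1730 and 2119 without Epor-eGFP- library 0. With all libraries these numbers were 2489 and 2883.

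**Figure D1:**
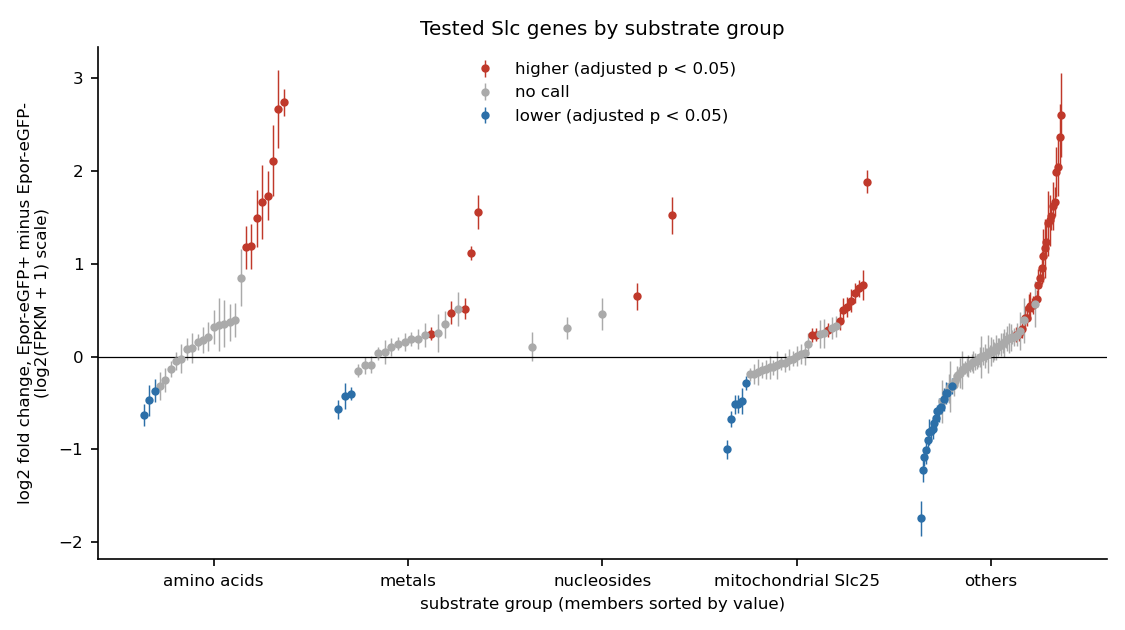
Log2 difference, Epor-eGFP+ minus Epor-eGFP-, of each of the 178 tested solute carrier genes on the log2(FPKM + 1) scale, by substrate group, with 1 point per gene coloured by its call at an adjusted p under 0.05 and bars for the standard error. Each group holds genes on both sides of 0, apart from the 5 nucleoside and nucleobase carriers, which all lie above it, and 24 genes lie at or above 1 while 4 lie at or below −1.

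Among the carriers of amino acids and peptides, 8 of the 27 tested genes rose (29.6%, where 22.7% of all tested genes rose). Another 3 carriers fell (11.1%, where 26.3% of all tested genes fell) and 16 had no call, with a median difference of 0.31. Their summed level was 582 ± 115 FPKM in Epor-eGFP+ libraries, against 430 ± 19.9 FPKM in Epor-eGFP- libraries (SD, n = 3 each). The largest rise on the log2(FPKM + 1) scale belonged to Slc38a5 (chrX:8271133-8280179 on GRCm38, plus strand), a sodium-coupled carrier of glutamine and other neutral amino acids, with 8.12, 5.99 and 5.48 FPKM in the Epor-eGFP+ libraries, against 0.174, 0.106 and 0.0788 FPKM in the Epor-eGFP- libraries, each in the order 0, 1 and 2 that is kept throughout. That is a log2 difference of 2.73 ± 0.15 (adjusted p = 0.000229), and the gene was close to 0 in each Epor-eGFP- library. Slc1a3 (chr15:8634124-8710764, minus strand), a sodium-coupled glutamate and aspartate transporter known from astrocytes, had 4.63, 3.24 and 13.6 FPKM in Epor-eGFP+ libraries, against 0.160, 0.0901 and 0.0873 FPKM in Epor-eGFP- libraries (2.66 ± 0.42, adjusted p = 0.00278). The Epor-eGFP+ mean of 7.14 FPKM was 3.93 FPKM without library 2, where the gene was highest. The order of these genes depended on the libraries, since without Epor-eGFP+ library 0 the log2 difference was 2.82 for Slc1a3 and 2.59 for Slc38a5, and without library 1 it was 3.02 for Slc1a3 and 2.78 for Slc38a5.

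Genes of the system L carriers, which exchange large neutral amino acids such as leucine, rose together with their partner subunit, apart from Slc43a2. Slc3a2 encodes the CD98 heavy chain that brings several Slc7 carriers to the cell surface, and it had 77.5, 54.97 and 109 FPKM in Epor-eGFP+ libraries, against 35.5, 35.7 and 30.6 FPKM in Epor-eGFP- libraries (1.17 ± 0.23, adjusted p = 0.00607). Its light chain Slc7a8 had 44.4, 25.6 and 88.9 FPKM in Epor-eGFP+ libraries compared with 14.4, 15.6 and 12.4 FPKM in Epor-eGFP- libraries (1.66 ± 0.40, adjusted p = 0.0133), and the Epor-eGFP+ mean of 52.95 FPKM was 34.99 FPKM without library 2. For the light chain Slc7a5 the values were 28.5, 29.7 and 21.3 FPKM in Epor-eGFP+ libraries, against 9.66, 16.3 and 8.31 FPKM in Epor-eGFP- libraries (1.18 ± 0.24, adjusted p = 0.00731). Slc7a8 and Slc3a2 were highest in Epor-eGFP+ library 2 and lowest in library 1, while for Slc7a5 library 1 was highest and library 2 lowest. Slc43a1, a system L carrier that works without the heavy chain, had 14.01, 7.05 and 8.296 FPKM in Epor-eGFP+ libraries compared with 2.597, 2.57 and 1.398 FPKM in Epor-eGFP- libraries (1.73 ± 0.26, adjusted p = 0.00249). Slc43a2, a further system L carrier that was named after its values were seen, averaged 41.7 ± 17.3 FPKM in Epor-eGFP+ libraries, against 31.3 ± 6.27 FPKM in Epor-eGFP- libraries (SD, n = 3 each) with no call (adjusted p = 0.344). For the 4 genes that rose, every Epor-eGFP+ library lay above every Epor-eGFP- library. The groups did not overlap for 60.4% of all tested genes in either direction. The 4 genes were also grouped by their calls in these libraries, so the separation adds no support.

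The heavy chain also pairs with Slc7a7 and Slc7a11. Slc7a7, which exports cationic amino acids in exchange for neutral ones and was picked out after its values were seen, had 18.01, 13.5 and 34.1 FPKM in Epor-eGFP+ libraries compared with 10.7, 9.29 and 12.8 FPKM in Epor-eGFP- libraries, with no call (0.85, adjusted p = 0.0573; 0.0130 with the replicate block and 0.0130 to 0.142 over all alternatives). Slc7a11, the cystine and glutamate exchanger that feeds glutathione synthesis, was below the level tested, at 0.651, 0.620 and 0.528 FPKM in Epor-eGFP+ libraries, against 1.41, 1.15 and 0.909 FPKM in Epor-eGFP- libraries. All 3 of its Epor-eGFP+ values lay under the lowest Epor-eGFP- value. The arginine and lysine importer Slc7a1, which needs no heavy chain, had a log2 difference of 0.31 with no call (adjusted p = 0.194; 0.0130 with the replicate block and 0.0130 to 0.466 over all alternatives).

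Glutamine and small neutral amino acids are also carried by Slc1a5 and Slc38a2, and neither of these rose with all libraries in the fit. Slc1a5 stood at 39.3, 38.6 and 29.03 FPKM in Epor-eGFP+ libraries compared with 32.1, 33.1 and 34.8 FPKM in Epor-eGFP- libraries, which overlap (0.08 ± 0.12, adjusted p = 0.604). Without Epor-eGFP+ library 2, where it was lowest, the log2 difference was 0.22 and passed the threshold (adjusted p = 0.0498; 0.0400 to 0.972 over all alternatives). Slc38a2, whose expression is known to respond to amino acid shortage, fell to 34.05, 40.01 and 31.7 FPKM in Epor-eGFP+ libraries, against 48.8, 54.5 and 61.6 FPKM in Epor-eGFP- libraries (−0.63 ± 0.12, adjusted p = 0.00544). Slc38a5 made up 15.7 ± 3.22% of the summed FPKM of Slc38a5 and Slc38a2 in Epor-eGFP+ libraries and 0.226 ± 0.117% in Epor-eGFP- libraries (SD, n = 3 each). The glycine transporter Slc6a9, which red cell precursors use to supply heme synthesis, was not tested, with 1.81, 0.519 and 1.02 FPKM in Epor-eGFP+ libraries, against 0.244, 0.181 and 0.171 FPKM in Epor-eGFP- libraries. Slc36a1, a proton-coupled exporter of small amino acids from lysosomes, averaged 13.02 ± 1.24 FPKM in Epor-eGFP+ libraries compared with 13.5 ± 1.01 FPKM in Epor-eGFP- libraries (SD, n = 3 each), with no call (adjusted p = 0.681).

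Of the 3 peptide carriers tested, 1 rose and 1 fell (33.3% each), where 22.7% of all tested genes rose and 26.3% fell. Shares over 3 genes say little about the class. Slc15a2, which takes up dipeptides and tripeptides with protons at the cell surface, had 8.56, 5.59 and 19.98 FPKM in Epor-eGFP+ libraries, against 1.72, 1.49 and 1.45 FPKM in Epor-eGFP- libraries (2.11 ± 0.38, adjusted p = 0.00477). Its Epor-eGFP+ mean of 11.4 FPKM was 7.08 FPKM without library 2. Slc15a4, an endolysosomal carrier of histidine and peptides, had 19.9, 19.4 and 24.7 FPKM in Epor-eGFP+ libraries compared with 28.7, 24.7 and 37.5 FPKM in Epor-eGFP- libraries, which overlap in part. Its call lay at the threshold (−0.47 ± 0.16, adjusted p = 0.0491) and was lost without any of 4 libraries, with adjusted p of 0.140 and 0.124 without Epor-eGFP+ libraries 0 and 1 and 0.101 and 0.109 without Epor-eGFP- libraries 0 and 2. The call was also lost after rescaling to a common total (adjusted p = 0.0731) or a common upper quartile (0.0577). Quantile normalization (0.0600) and a fit with no mean-variance trend (0.0541) lost the call of Slc15a4 too. Its log2 difference ran from −0.61 to −0.31 with single libraries left out, and its adjusted p from 0.00507 to 0.140 over all alternatives. Slc15a3, its close relative on lysosomes, had no call (0.35, adjusted p = 0.277; 0.0464 with the replicate block and 0.0460 to 0.640 over all alternatives). Slc38a9, the lysosomal arginine sensor upstream of mTORC1, had a log2 difference of −0.37 (adjusted p = 0.0408), and its adjusted p was 0.121, 0.0775 and 0.0681 without Epor-eGFP+ libraries 0, 1 and 2 and 0.0842 and 0.0934 without Epor-eGFP- libraries 0 and 2 (0.0181 to 0.121 over all alternatives). The adjusted p of Slc38a9 was 0.0840 with a common total and 0.0572 with a common upper quartile. The number of lower genes in this substrate group was 1 without Epor-eGFP+ library 0 and likewise without Epor-eGFP- library 0.

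**Figure D2:**
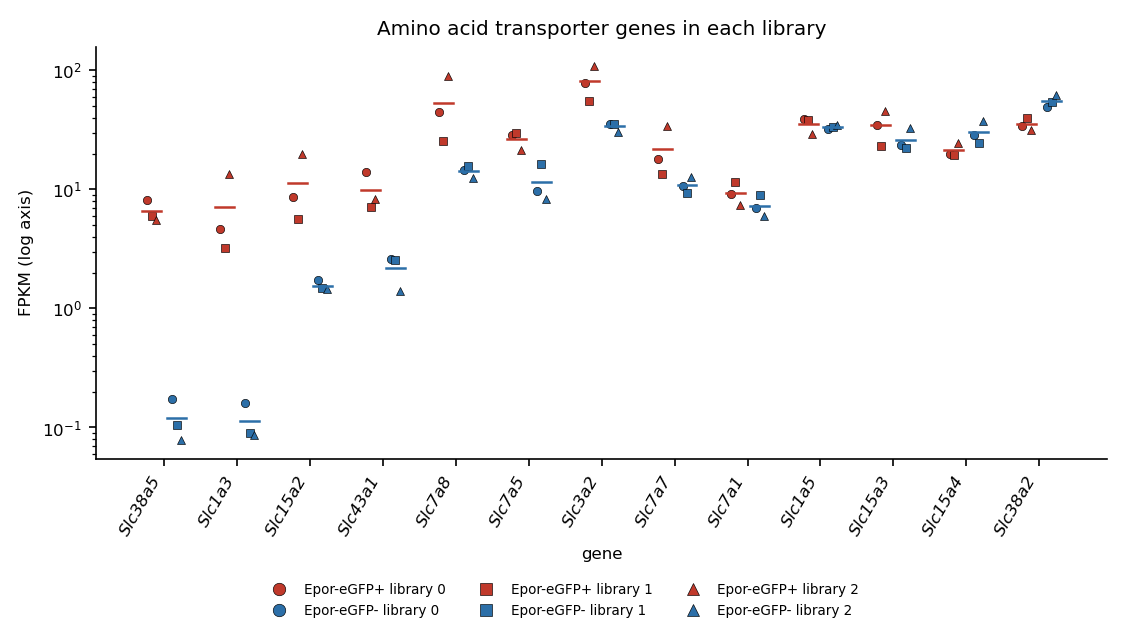
FPKM of named amino acid and peptide carriers in each library on a log axis, with 1 point per library, a line at the mean of each group, and Epor-eGFP+ libraries left of Epor-eGFP- libraries. Slc38a5 and Slc1a3 sit near or under 0.2 FPKM in all 3 Epor-eGFP- libraries and above 3 FPKM in all 3 Epor-eGFP+ libraries, while Slc38a2 lies lower in the Epor-eGFP+ libraries.

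Of the 22 metal carriers tested, 5 rose, 3 fell and 14 had no call, with a median difference of 0.17. The share that rose, 22.7%, equals the share over all tested genes, and 13.6% fell, where 26.3% of all tested genes fell. Slc11a2 (chr15:100387898-100425072, minus strand), which moves ferrous iron with protons across the plasma membrane and out of endosomes, had 11.5, 10.7 and 12.2 FPKM in Epor-eGFP+ libraries, against 4.71, 4.66 and 4.89 FPKM in Epor-eGFP- libraries (1.11 ± 0.08, adjusted p = 0.000330). The spread within either group was small beside the gap between the groups. Slc39a8, an importer of zinc and manganese, had 5.25, 4.24 and 7.07 FPKM in Epor-eGFP+ libraries compared with 1.06, 1.56 and 0.979 FPKM in Epor-eGFP- libraries (1.55 ± 0.18, adjusted p = 0.00107). Slc39a11, a zinc carrier of the same family, had 36.8, 40.5 and 33.8 FPKM in Epor-eGFP+ libraries, against 26.9, 28.1 and 22.1 FPKM in Epor-eGFP- libraries (0.51, adjusted p = 0.00920).

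The other rises among metal carriers were small and lost their calls without single libraries. Slc39a13, a zinc carrier of the secretory pathway, averaged 7.03 ± 0.866 FPKM in Epor-eGFP+ libraries compared with 4.79 ± 0.689 FPKM in Epor-eGFP- libraries (SD, n = 3 each; adjusted p = 0.0188), and its adjusted p was 0.0612 without Epor-eGFP+ library 0 and 0.0506 without Epor-eGFP- library 0 (0.00463 to 0.0612 over all alternatives). Slc30a5, which loads zinc into the secretory pathway, averaged 30.3 ± 1.36 FPKM in Epor-eGFP+ libraries, against 25.4 ± 0.745 FPKM in Epor-eGFP- libraries (SD, n = 3 each; adjusted p = 0.0210). Its adjusted p was 0.0861 and 0.0576 without Epor-eGFP+ libraries 0 and 1, and 0.0530, 0.0587 and 0.0505 without Epor-eGFP- libraries 0, 1 and 2 (0.0129 to 0.0861 over all alternatives). The group's count of rises was 3 without Epor-eGFP+ library 0 and likewise without Epor-eGFP- library 0.

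Carriers of copper and magnesium made up the falls. Slc31a2, an intracellular copper carrier, fell to 18.3, 18.8 and 20.7 FPKM in Epor-eGFP+ libraries, against 26.1, 25.2 and 25.6 FPKM in Epor-eGFP- libraries (−0.40, adjusted p = 0.00447). Its relative Slc31a1, the main copper importer of the cell surface, had no call (−0.09, adjusted p = 0.460). Slc41a3, a magnesium carrier, had 8.09, 6.79 and 7.82 FPKM in Epor-eGFP+ libraries compared with 11.9, 10.4 and 12.8 FPKM in Epor-eGFP- libraries (−0.57, adjusted p = 0.00461). The magnesium exporter Slc41a1 was also lower (−0.43, adjusted p = 0.0408), with an adjusted p of 0.0733, 0.105 and 0.0715 without Epor-eGFP+ libraries 0, 1 and 2 and 0.133 and 0.118 without Epor-eGFP- libraries 0 and 2 (0.00780 to 0.151 over all alternatives). Its adjusted p was 0.0741 with a common total and 0.0560 with a common upper quartile.

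Several zinc carriers of known roles had no call. Slc30a1, the zinc exporter of the plasma membrane, averaged 5.96 ± 1.05 FPKM in Epor-eGFP+ libraries, against 5.68 ± 0.409 FPKM in Epor-eGFP- libraries (SD, n = 3 each; 0.05, adjusted p = 0.766). Slc39a14, an importer of zinc, manganese and iron, had a log2 difference of 0.23 (adjusted p = 0.175). For the zinc importer Slc39a1 the difference was 0.51 (adjusted p = 0.0554; 0.00732 with the replicate block and 0.00732 to 0.142 over all alternatives), and for Slc39a7, which releases zinc from the endoplasmic reticulum, it was 0.19 (adjusted p = 0.0763; 0.0356 with the replicate block and 0.0235 to 0.244 over all alternatives). Slc39a7 was the metal carrier with the highest level, at 54.9 ± 2.98 FPKM in Epor-eGFP+ libraries compared with 48.1 ± 2.65 FPKM in Epor-eGFP- libraries (SD, n = 3 each).

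All 5 carriers of nucleosides and nucleobases were tested, and 2 rose (40%, where 22.7% of all tested genes rose). A share over 5 genes says little about the group. Slc29a1 (chr17:45585200-45599606, minus strand), the equilibrative nucleoside transporter of the plasma membrane, had 61.96, 46.1 and 85.00 FPKM in Epor-eGFP+ libraries, against 20.8, 22.3 and 20.3 FPKM in Epor-eGFP- libraries (1.52 ± 0.20, adjusted p = 0.00155), with the lowest Epor-eGFP+ library above the highest Epor-eGFP- library. Slc43a3, a facilitative carrier of purine nucleobases, had 48.1, 51.1 and 42.7 FPKM in Epor-eGFP+ libraries compared with 29.2, 36.8 and 24.5 FPKM in Epor-eGFP- libraries (0.65 ± 0.15, adjusted p = 0.0115). Slc29a3, which carries nucleosides out of lysosomes, averaged 21.7 ± 4.31 FPKM in Epor-eGFP+ libraries, against 19.98 ± 2.98 FPKM in Epor-eGFP- libraries (SD, n = 3 each), with no call (adjusted p = 0.607). Slc28a2, a sodium-coupled importer of purine nucleosides that falls outside the naming rule, had a log2 difference of 0.46 (adjusted p = 0.0653; 0.00709 with the replicate block and 0.00709 to 0.187 over all alternatives). The group summed to 156 ± 15.4 FPKM in Epor-eGFP+ libraries, against 87.6 ± 6.72 FPKM in Epor-eGFP- libraries (SD, n = 3 each).

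The mitochondrial carriers of family Slc25 held 11 rises (29.7%), 6 falls (16.2%) and 20 genes without a call among 37 tested, with a median difference of 0.003. Over all tested genes, 22.7% rose and 26.3% fell. The family includes Slc25a5 and Slc25a3, the members with the highest mean levels, and summed to 1179 ± 22.9 FPKM in Epor-eGFP+ libraries, against 1059 ± 42.2 FPKM in Epor-eGFP- libraries (SD, n = 3 each). Slc25a1, which exports citrate to the cytosol for lipid synthesis, had 41.6, 34.4 and 41.8 FPKM in Epor-eGFP+ libraries compared with 23.3, 23.4 and 22.6 FPKM in Epor-eGFP- libraries (0.74 ± 0.09, adjusted p = 0.00122). The dicarboxylate carrier Slc25a10 had 12.6, 12.6 and 13.3 FPKM in Epor-eGFP+ libraries, against 7.12, 9.08 and 6.79 FPKM in Epor-eGFP- libraries (0.68, adjusted p = 0.00304). Slc25a21, an oxodicarboxylate carrier under the level of the naming rule and chosen after its values were seen, had 3.11, 3.07 and 2.31 FPKM in Epor-eGFP+ libraries, where Epor-eGFP- libraries held 0.0441, 0.0210 and 0.0357 FPKM (1.88, adjusted p = 0.000313).

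Smaller rises were seen in abundant carriers of this family, and each lost its call without some single libraries. Slc25a39, which imports glutathione into mitochondria, had 72.9, 58.3 and 80.5 FPKM in Epor-eGFP+ libraries compared with 46.6, 49.3 and 51.4 FPKM in Epor-eGFP- libraries (0.50, adjusted p = 0.0140), with an adjusted p of 0.0552 without Epor-eGFP+ library 0 and 0.0544 without Epor-eGFP- library 0 (0.00328 to 0.0552 over all alternatives). Slc25a51, the NAD carrier, had a log2 difference of 0.38 (adjusted p = 0.0179), and its adjusted p was 0.0701 without Epor-eGFP+ library 0 and 0.0598 and 0.0524 without Epor-eGFP- libraries 0 and 1 (0.00534 to 0.0701 over all alternatives). Slc25a3, the phosphate carrier for ATP synthesis, had 223, 215 and 217 FPKM in Epor-eGFP+ libraries, against 169, 176 and 192 FPKM in Epor-eGFP- libraries (0.29, adjusted p = 0.0181). Its adjusted p was 0.0749 without Epor-eGFP+ library 0 and 0.0736 and 0.0512 without Epor-eGFP- libraries 0 and 1 (0.00260 to 0.0749 over all alternatives). The ADP/ATP exchanger Slc25a5 had 422, 429 and 407 FPKM in Epor-eGFP+ libraries compared with 337, 364 and 373 FPKM in Epor-eGFP- libraries (0.23, adjusted p = 0.0429). Its adjusted p was 0.129, 0.112 and 0.0593 without Epor-eGFP+ libraries 0, 1 and 2 and 0.153 and 0.0800 without Epor-eGFP- libraries 0 and 1 (0.0175 to 0.153 over all alternatives). The family's count of rises was 6 without Epor-eGFP+ library 0 and likewise without Epor-eGFP- library 0.

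Iron import into mitochondria runs through the mitoferrins, and 1 of the 2 genes fell. Slc25a28, the mitoferrin of most tissues, fell to 14.5, 13.3 and 13.9 FPKM in Epor-eGFP+ libraries, against 19.7, 18.4 and 22.9 FPKM in Epor-eGFP- libraries (−0.51 ± 0.09, adjusted p = 0.00493). Slc25a37, the mitoferrin that erythroblasts depend on, had 23.5, 16.8 and 16.2 FPKM in Epor-eGFP+ libraries, against 17.6, 14.6 and 14.4 FPKM in Epor-eGFP- libraries, with overlapping groups and no call (0.25 ± 0.15, adjusted p = 0.214; 0.0355 with the replicate block and 0.0355 to 0.578 over all alternatives). Slc25a37 made up 57.2 ± 4.17% of the summed FPKM of the pair in Epor-eGFP+ libraries and 43.4 ± 4.30% in Epor-eGFP- libraries (SD, n = 3 each). Slc25a38, which brings glycine into mitochondria for heme synthesis, had no call (−0.14, adjusted p = 0.303).

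Among the falls of the family, Slc25a24, the calcium-regulated carrier of ATP-magnesium and phosphate, was lowest relative to Epor-eGFP- cells. It had 13.2, 16.4 and 13.3 FPKM in Epor-eGFP+ libraries compared with 30.3, 30.6 and 27.3 FPKM in Epor-eGFP- libraries (−0.997 ± 0.10, adjusted p = 0.000722). Slc25a45 averaged 19.7 ± 0.749 FPKM in Epor-eGFP+ libraries, against 31.97 ± 3.26 FPKM in Epor-eGFP- libraries (SD, n = 3 each; −0.67, adjusted p = 0.00150), and Slc25a30 averaged 7.83 ± 0.483 FPKM in Epor-eGFP+ libraries compared with 11.7 ± 1.46 FPKM in Epor-eGFP- libraries (−0.51, adjusted p = 0.00696). Slc25a20, the exchanger that admits acylcarnitines for fatty acid oxidation, was also lower (−0.48, adjusted p = 0.0284), with an adjusted p of 0.0707 and 0.0651 without Epor-eGFP+ libraries 1 and 2 and 0.0985 and 0.0872 without Epor-eGFP- libraries 0 and 2 (0.00468 to 0.137 over all alternatives). With a common total its adjusted p was 0.0583.

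**Figure D3:**
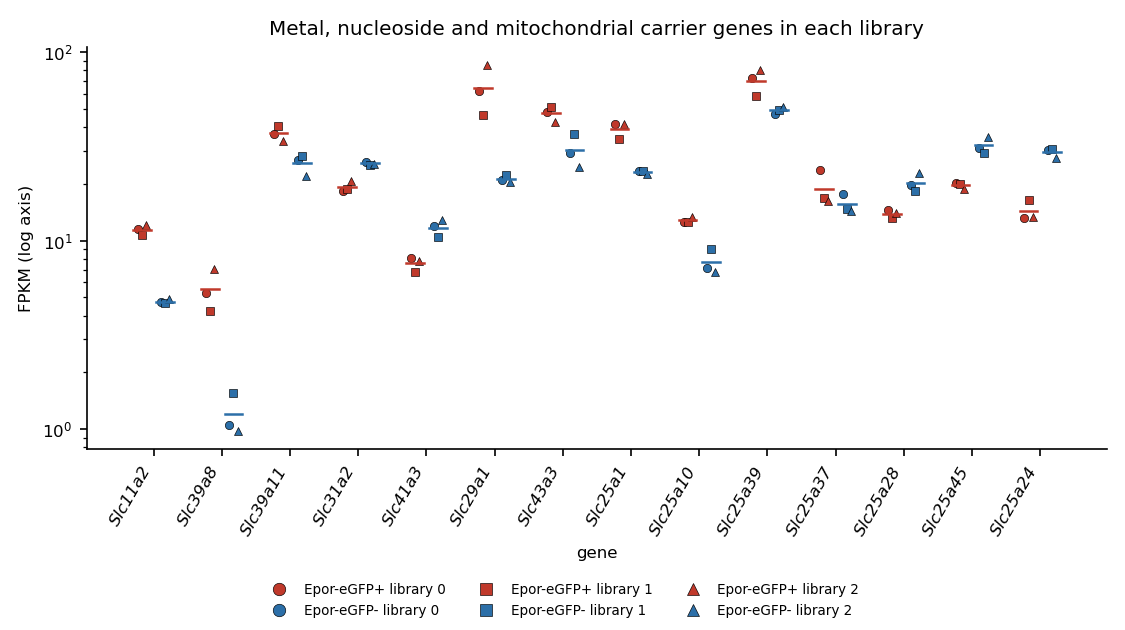
FPKM of named metal, nucleoside and mitochondrial carriers in each library on a log axis, with 1 point per library, a line at the mean of each group, and Epor-eGFP+ libraries left of Epor-eGFP- libraries. Slc11a2 lies between 10.7 and 12.2 FPKM in Epor-eGFP+ libraries and between 4.66 and 4.89 FPKM in Epor-eGFP- libraries, Slc25a28 and Slc25a24 lie lower in Epor-eGFP+ libraries, and the values of Slc25a37 overlap.

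The remaining substrate classes held 25 rises (28.7%), 17 falls (19.5%) and 45 genes without a call among 87 tested, with a median difference of 0.06. Over all tested genes, 22.7% rose and 26.3% fell. The monocarboxylate carriers of family Slc16, which move lactate and pyruvate with protons, went both ways. Slc16a1, a carrier with high affinity for lactate, had 21.4, 21.7 and 16.3 FPKM in Epor-eGFP+ libraries, against 5.42, 6.75 and 4.57 FPKM in Epor-eGFP- libraries (1.66 ± 0.16, adjusted p = 0.000604). Slc16a3, which exports lactate from glycolytic cells, fell to 22.9, 22.9 and 18.7 FPKM in Epor-eGFP+ libraries, against 48.9, 43.9 and 46.6 FPKM in Epor-eGFP- libraries (−1.08 ± 0.10, adjusted p = 0.000543). Slc16a1 made up 48.3, 48.7 and 46.6% of the summed FPKM of the pair in Epor-eGFP+ libraries and 9.97, 13.3 and 8.92% in Epor-eGFP- libraries. Slc16a9, described as a carnitine carrier, had 8.32, 3.93 and 18.04 FPKM in Epor-eGFP+ libraries compared with 0.949, 0.430 and 0.420 FPKM in Epor-eGFP- libraries (2.60 ± 0.45, adjusted p = 0.00405), and its Epor-eGFP+ mean of 10.1 FPKM was 6.12 FPKM without library 2.

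Promoters of 4 genes are shown because these genes stand for patterns described here: Slc38a5 for a rise among the largest, Slc37a2 for a library order shared by 17 members, and Slc16a1 and Slc16a3 for a rise and a fall within 1 family. Each runs from 250 bases before to 50 bases after the start of the gene in RefSeq on GRCm38.p6, on the gene's own strand, and capitals mark any match to 3 motifs searched on both strands. The E-box was searched as CACGTG, the motif of GATA factors as AGATAA, and the AP-1 motif as TGAGTCA. Each was searched in this 1 form only, so an unmarked window may hold other forms of these motifs. The windows lie at chrX:8271131-8271430 on the plus strand (Slc38a5), chr9:37255689-37255988 on the minus strand (Slc37a2), chr3:104638414-104638713 on the plus strand (Slc16a1) and chr11:120948817-120949116 on the plus strand (Slc16a3).
Slc38a5: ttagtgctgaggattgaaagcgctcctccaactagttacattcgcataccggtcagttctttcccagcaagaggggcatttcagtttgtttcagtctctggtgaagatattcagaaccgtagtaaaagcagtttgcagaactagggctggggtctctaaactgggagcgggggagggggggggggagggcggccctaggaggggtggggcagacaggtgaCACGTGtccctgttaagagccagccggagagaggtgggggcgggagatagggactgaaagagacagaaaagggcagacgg
Slc37a2: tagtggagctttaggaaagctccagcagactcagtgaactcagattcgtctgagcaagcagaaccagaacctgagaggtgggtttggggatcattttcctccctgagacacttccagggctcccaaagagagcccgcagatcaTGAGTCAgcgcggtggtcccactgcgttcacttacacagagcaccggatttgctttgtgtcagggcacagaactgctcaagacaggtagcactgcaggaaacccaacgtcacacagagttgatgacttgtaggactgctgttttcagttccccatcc
Slc16a1: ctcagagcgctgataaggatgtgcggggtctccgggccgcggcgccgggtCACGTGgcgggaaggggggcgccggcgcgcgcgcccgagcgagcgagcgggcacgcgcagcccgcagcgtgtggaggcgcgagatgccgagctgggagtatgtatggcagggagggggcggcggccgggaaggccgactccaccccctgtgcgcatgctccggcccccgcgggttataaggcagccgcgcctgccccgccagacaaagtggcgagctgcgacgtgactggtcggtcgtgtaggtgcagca
Slc16a3: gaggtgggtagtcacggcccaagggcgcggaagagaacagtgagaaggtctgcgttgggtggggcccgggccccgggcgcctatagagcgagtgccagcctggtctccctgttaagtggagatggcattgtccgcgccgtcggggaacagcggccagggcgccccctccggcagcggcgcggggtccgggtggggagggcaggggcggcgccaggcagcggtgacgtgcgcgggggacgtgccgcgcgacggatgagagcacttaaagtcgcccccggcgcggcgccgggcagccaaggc
The windows of Slc38a5 and Slc16a1 each hold an E-box, which starts at −30 and −200 relative to the gene's start, and that of Slc37a2 holds an AP-1 match at −107. Positions count from the RefSeq start, which for Slc38a5 and Slc16a3 lies downstream of the gene's first base in GENCODE, so that those windows lie wholly or almost wholly inside the gene as GENCODE gives it. No match to these letters lies in the window of Slc16a3. Of 32851 promoter windows of the same length in the table, 7.15% hold CACGTG, 11.2% hold AGATAA and 5.20% hold TGAGTCA, and a match here is a description of the sequence. The 3 motifs do not overlap each other in these windows.

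Sugar carriers numbered 4 rises (40%) and 2 falls (20%) among 10 tested, where 22.7% of all tested genes rose and 26.3% fell. Slc37a2, a phosphate-linked carrier of glucose 6-phosphate in the endoplasmic reticulum that is known from macrophages, had 23.6, 13.9 and 41.9 FPKM in Epor-eGFP+ libraries, against 4.03, 3.19 and 4.45 FPKM in Epor-eGFP- libraries (2.37 ± 0.35, adjusted p = 0.00232). Slc45a3, a proposed sugar carrier, had 10.8, 5.94 and 14.3 FPKM in Epor-eGFP+ libraries compared with 2.396, 1.67 and 0.985 FPKM in Epor-eGFP- libraries (2.04 ± 0.32, adjusted p = 0.00263). The strongest fall among the tested members was that of Slc2a6 (chr2:27021363-27027998, minus strand), a hexose carrier of lysosomes in macrophages, with 5.55, 6.47 and 5.74 FPKM in Epor-eGFP+ libraries, against 19.4, 18.1 and 30.5 FPKM in Epor-eGFP- libraries (−1.74 ± 0.19, adjusted p = 0.000866). The intracellular hexose carrier Slc2a8, named after its values were seen, had 6.94, 5.54 and 8.95 FPKM in Epor-eGFP+ libraries compared with 3.39, 3.34 and 4.47 FPKM in Epor-eGFP- libraries (adjusted p = 0.0103). Slc2a8 made up 54.2 ± 7.5% of the summed FPKM of Slc2a8 and Slc2a6 in Epor-eGFP+ libraries and 14.4 ± 1.46% in Epor-eGFP- libraries (SD, n = 3 each).

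Of the 21 tested carriers of inorganic ions and urea, 5 rose (23.8%) and 4 fell (19%), where 22.7% of all tested genes rose and 26.3% fell. The cation and chloride cotransporters of family Slc12, which set cell volume and chloride, went both ways. Slc12a7, a potassium and chloride exporter, had 10.3, 7.72 and 17.7 FPKM in Epor-eGFP+ libraries, against 3.25, 2.803 and 2.97 FPKM in Epor-eGFP- libraries (1.62 ± 0.26, adjusted p = 0.00291). Slc12a2, which brings in sodium, potassium and chloride, had 8.27, 5.61 and 14.9 FPKM in Epor-eGFP+ libraries compared with 4.14, 1.79 and 2.46 FPKM in Epor-eGFP- libraries (1.43 ± 0.35, adjusted p = 0.0144). Slc12a9, a further member of the family, fell and averaged 7.97 ± 0.349 FPKM in Epor-eGFP+ libraries, against 17.3 ± 3.898 FPKM in Epor-eGFP- libraries (SD, n = 3 each; −1.01, adjusted p = 0.00205).

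Slc9a9, the sodium and proton exchanger of endosomes, had 25.8, 16.6 and 45.4 FPKM in Epor-eGFP+ libraries compared with 11.6, 10.5 and 12.4 FPKM in Epor-eGFP- libraries (1.17, adjusted p = 0.0216). Its adjusted p was 0.0583 without Epor-eGFP+ library 0 and 0.0624 and 0.0593 without Epor-eGFP- libraries 0 and 1 (0.00447 to 0.0624 over all alternatives). The scaffold protein gene Slc9a3r1, no transporter itself, fell to 78.1, 72.98 and 76.6 FPKM in Epor-eGFP+ libraries, against 129, 131 and 116 FPKM in Epor-eGFP- libraries (−0.71, adjusted p = 0.000815). Slc14a1, the urea channel of red cells, had no call (0.56, adjusted p = 0.0970; 0.00379 with the replicate block and 0.00379 to 0.259 over all alternatives). Slc20a1, a sodium-coupled phosphate importer, averaged 13.96 ± 1.34 FPKM in Epor-eGFP+ libraries compared with 13.9 ± 1.11 FPKM in Epor-eGFP- libraries (SD, n = 3 each; adjusted p = 0.989).

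Of 7 vitamin carriers tested, 4 rose (57.1%, where 22.7% of all tested genes rose) and none fell at the threshold used. Of all tested genes, 26.3% fell, and a share over 7 genes says little about the class. Slc19a1, the reduced folate carrier, had 13.4, 12.7 and 10.3 FPKM in Epor-eGFP+ libraries, against 4.78, 5.73 and 3.45 FPKM in Epor-eGFP- libraries (1.23 ± 0.17, adjusted p = 0.00177). Slc46a1, the proton-coupled folate carrier, had 2.61, 1.58 and 4.96 FPKM in Epor-eGFP+ libraries compared with 0.898, 0.714 and 0.789 FPKM in Epor-eGFP- libraries (1.08 ± 0.28, adjusted p = 0.0184), with an adjusted p of 0.0511 without Epor-eGFP+ library 0 and 0.0502 without Epor-eGFP- library 2 (0.00533 to 0.0511 over all alternatives). Its lysosomal relative Slc46a3 had no call (0.39, adjusted p = 0.218).

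Lipid and choline carriers counted 2 rises and 2 falls among 6 tested (33.3% each), where 22.7% of all tested genes rose and 26.3% fell. Slc27a4, which activates and retains long-chain fatty acids, fell to 16.5, 14.05 and 14.5 FPKM in Epor-eGFP+ libraries, against 42.5, 36.9 and 29.98 FPKM in Epor-eGFP- libraries (−1.22 ± 0.13, adjusted p = 0.000872). Its relative Slc27a1, named after its values were seen, had 4.96, 3.73 and 4.44 FPKM in Epor-eGFP+ libraries, against 2.09, 1.88 and 1.98 FPKM in Epor-eGFP- libraries (adjusted p = 0.00148). The choline carrier Slc44a2 fell to 44.4, 43.9 and 43.9 FPKM in Epor-eGFP+ libraries, against 79.5, 64.1 and 86.5 FPKM in Epor-eGFP- libraries (−0.77 ± 0.11, adjusted p = 0.00213). Among the 15 tested carriers of organic anions and cations, 5 rose (33.3%) and 2 fell (13.3%). The second fall beside Slc16a3 was Slc22a15 (−0.80, adjusted p = 0.00158). It stood at 2.95 ± 0.399 FPKM in Epor-eGFP+ libraries compared with 5.85 ± 0.464 FPKM in Epor-eGFP- libraries (SD, n = 3 each). Family Slc35, whose known members bring nucleotide sugars into the Golgi, had 5 rises and 5 falls among 20 tested. These are 25% each, near the 22.7% and 26.3% over all tested genes. Slc35e4 fell (−0.81, adjusted p = 0.00366), and Slc35c2, the most abundant of the family, had no call at 65.5 ± 4.17 FPKM in Epor-eGFP+ libraries, against 67.3 ± 1.31 FPKM in Epor-eGFP- libraries (SD, n = 3 each). None of the 3 vesicular carriers tested was called.

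Some families held genes called in opposite directions. Of 31 families with at least 2 tested members, 10 had a gene that rose and a gene that fell, among them Slc2, Slc12, Slc15, Slc16, Slc22, Slc25, Slc27, Slc35 and Slc38. In Slc15 the fall is that of Slc15a4, whose call lay at the threshold (adjusted p = 0.0491). Over all tested genes 22.7% rose and 26.3% fell. How often other gene sets of these sizes hold both was not counted, so the number is not read as a trait of solute carriers. Within such pairs the share of the gene that rose gives a ratio inside each library. Slc27a1 made up 22.5 ± 1.34% of the summed FPKM of Slc27a1 and Slc27a4 in Epor-eGFP+ libraries and 5.24 ± 0.835% in Epor-eGFP- libraries. Slc15a2 made up 32.4 ± 11.3% of Slc15a2 and Slc15a4 in Epor-eGFP+ libraries and 5.02 ± 1.12% in Epor-eGFP- libraries (SD, n = 3 each for both pairs). The pairs were chosen for their opposite calls, so these shares are descriptions.

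**Figure D4:**
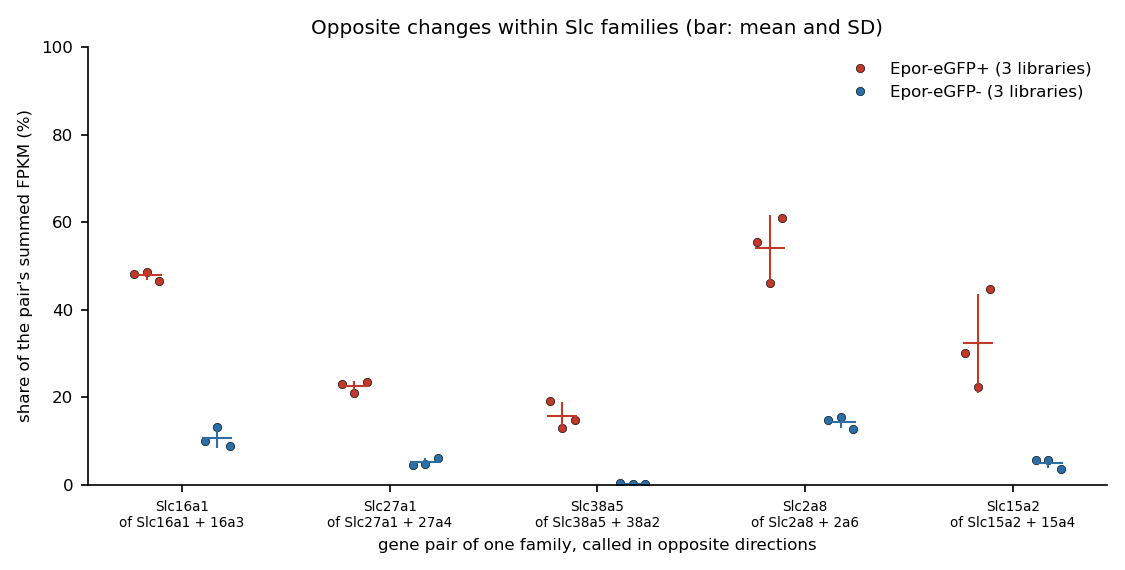
Share of each pair's summed FPKM that came from the first-named gene, in percent on an axis from 0, for 5 pairs of 1 family with opposite calls, with 1 point per library, bars for the mean and SD of 3 libraries, and Epor-eGFP+ libraries left of Epor-eGFP- libraries. The share of Slc16a1 lies between 46.6 and 48.7% in Epor-eGFP+ libraries and between 8.92 and 13.3% in Epor-eGFP- libraries, and that of Slc38a5 is under 1% in all 3 Epor-eGFP- libraries.

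The 3 Epor-eGFP+ libraries differed among themselves in the genes that rose most. Of the 24 members with a rise of at least 1, 17 (70.8%) were highest in library 2, and each of those 17 was lowest in library 1. These were Slc1a3, Slc16a9, Slc15a2, Slc7a8, Slc7a2, Slc46a1, Slc37a2, Slc12a2, Slc9a9, Slc22a23, Slc12a7, Slc45a3, Slc3a2, Slc29a1, Slc39a8, Slc13a3 and Slc11a2. Among all 539 genes of the table with such a rise, 346 (64.2%) were highest in library 2 and 374 were lowest in library 1. Of the 24 members, 18 were lowest in library 1. Another 5 of the 24, Slc19a1, Slc9b2, Slc43a1, Slc25a21 and Slc38a5, were highest in library 0, and Slc7a5 and Slc16a1 were highest in library 1. Over all 51 risers the share highest in library 2 was 60.8%, where it was 35.5% over all 2489 genes that rose.

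Marker lists stood in different orders over the same libraries. All 9 island macrophage genes were highest in library 2 of the Epor-eGFP+ group. Library 0 was highest for 6 of the 10 erythroid genes and all 6 osteoclast genes, and library 1 for all 4 promyelocyte genes. Among the 5 general macrophage genes, Adgre1, Csf1r, Cd68 and Fcgr1 also peaked in library 2, while Lyz2 peaked in library 1. All 6 monocyte genes and 6 of the 8 neutrophil genes peaked in library 1 too. Of the 6 eosinophil genes, 4 peaked in library 0 and 2 in library 2. The osteoclast genes summed to 280.0, 163 and 147 FPKM in Epor-eGFP+ libraries, against 93.5, 71.8 and 74.7 FPKM in Epor-eGFP- libraries. The promyelocyte genes summed to 7926, 9353 and 7532 FPKM in Epor-eGFP+ libraries, against 1484, 2673 and 1428 FPKM in Epor-eGFP- libraries. The part of these cell types in the order of the solute carriers was not tested. Without the libraries numbered 2 of both groups, 53 members were higher and 24 lower, where 2234 of all tested genes were higher and 2495 lower.

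**Figure D5:**
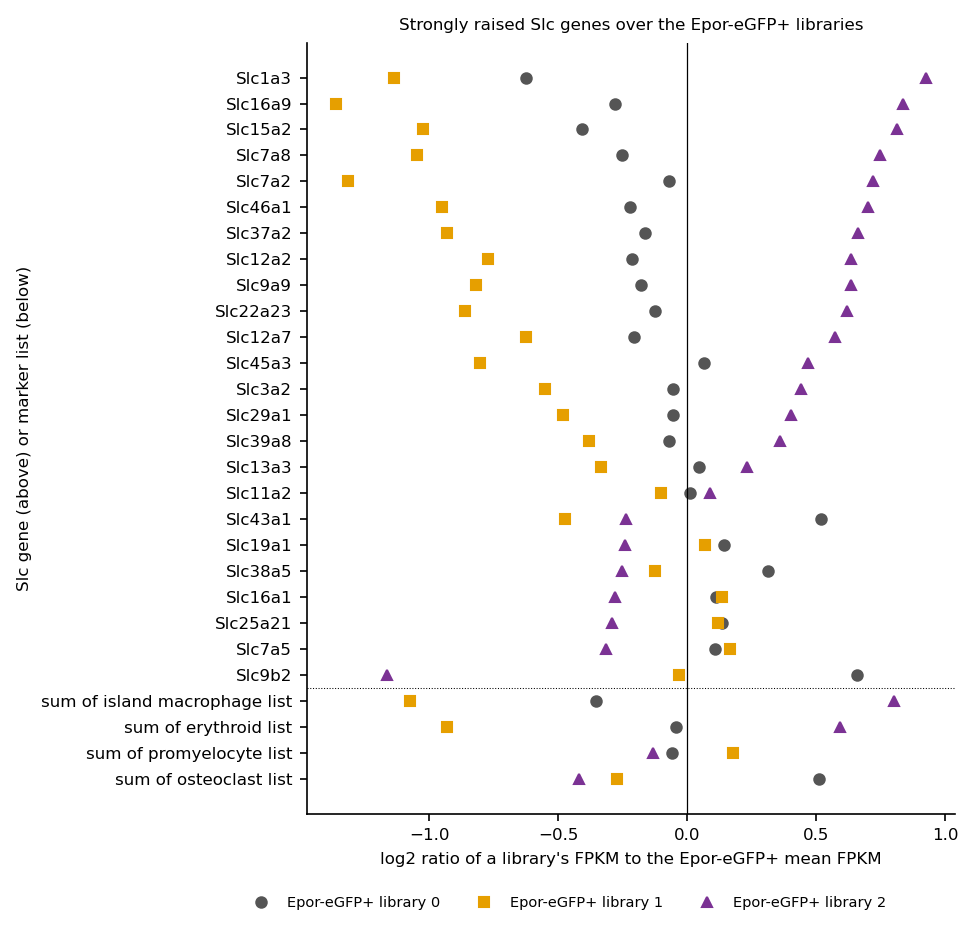
FPKM of each Epor-eGFP+ library relative to the mean of the 3, as a log2 ratio, for the 24 solute carrier genes with a rise of at least 1 and for 4 summed marker lists, with 1 row per gene or list and 1 point per library. For 17 of the 24 genes library 1 is lowest and library 2 highest, which is also the order of the island macrophage sum. The erythroid sum has that order with its globin genes Hba-a1 and Hba-a2 included, while the other 8 erythroid genes sum to 322, 243 and 236 FPKM in libraries 0, 1 and 2.

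Members under the tested level numbered 12, with means over the 6 libraries between 0.466 and 0.960 FPKM. The creatine carrier Slc6a8 was listed with 1.44, 0.799 and 1.18 FPKM in Epor-eGFP+ libraries, against 0.0724, 0.0958 and 0.0482 FPKM in Epor-eGFP- libraries. Every Epor-eGFP+ value lay above every Epor-eGFP- value, and all 6 were under 1.5 FPKM. Slc39a12 alone had a value listed at 0, in Epor-eGFP- library 1. Over all 190 members the median of the mean levels was 7.43 FPKM, and 10 members averaged at least 50 FPKM.

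Genes that work beside solute carriers were read from a list of 45 partners, other transporters and metal handling genes, of which 40 were in the table and 39 were tested. Of these, 19 rose (48.7%, where 22.7% of all tested genes rose), 5 fell (12.8%, where 26.3% of all tested genes fell) and 15 had no call, with a median difference of 0.23. With the replicate block, 20 rose and 8 fell. The falls numbered 3 without Epor-eGFP+ library 0 and 2 and 3 without Epor-eGFP- libraries 0 and 1. The list was chosen with earlier results of these data known, and its member Tfrc is also in the erythroid list. Its shares are therefore descriptions and no support for a rise of transport genes as a class. Bsg, the chaperone that brings Slc16a1 and Slc16a3 to the cell surface, had 156, 135 and 166 FPKM in Epor-eGFP+ libraries compared with 106, 112 and 112 FPKM in Epor-eGFP- libraries (0.46, adjusted p = 0.00666), while Emb, a related chaperone, fell to 64.5, 75.5 and 66.6 FPKM in Epor-eGFP+ libraries, against 143, 165 and 226 FPKM in Epor-eGFP- libraries (−1.33, adjusted p = 0.00130). Mt1, a metallothionein that binds zinc and copper, had 112, 84.2 and 118 FPKM in Epor-eGFP+ libraries, against 18.5, 19.3 and 14.5 FPKM in Epor-eGFP- libraries (2.52, adjusted p = 0.000265). Tfrc, the transferrin receptor, and Steap3, the reductase that prepares iron for Slc11a2, rose by 1.68 and 1.05 on the log2 scale (adjusted p = 0.000868 and 0.000641). Abcb10, which stabilises Slc25a37, rose by 0.86 (adjusted p = 0.00268).

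Glutathione synthesis uses the substrates of several amino acid carriers, and both subunits of its first enzyme rose, Gclc by 0.81 (adjusted p = 0.000957) and Gclm by 1.08 (adjusted p = 0.00142). Asns, which makes asparagine from glutamine, rose by 1.08 (adjusted p = 0.00257), and Atf4, the transcription factor of the amino acid response, had no call (−0.14, adjusted p = 0.282). Slco2b1, an organic anion carrier outside the Slc symbols, had 34.1, 17.8 and 77.5 FPKM in Epor-eGFP+ libraries compared with 1.17, 0.553 and 0.656 FPKM in Epor-eGFP- libraries (4.39 ± 0.47, adjusted p = 0.000842). The water channel of red cells, Aqp1, rose by 3.46 (adjusted p = 0.000594), while Aqp9, a channel for water and glycerol, fell (−1.29, adjusted p = 0.00337). The phosphate exporter Xpr1 also fell (−0.30, adjusted p = 0.0157).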

How the data were processed

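The deposited values are FPKM per gene in 1 table, made by the authors. The tools named in the submitters' processing notes are Cufflinks 2.2.1, TopHat2 2.1.0, Trimmomatic 0.35 and bcl2fastq 2.19.1.403, with build mm10. For the annotation and any filter or scaling step, the entry is: not given in the sources used here. Since Cufflinks estimates how ambiguous reads divide, a single value of a near-identical gene pair is uncertain. Read counts cannot be had from FPKM, so depth is unknown and counting intervals are left out.

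The model, limma 3.58.1 (R 4.3.3), took log2(FPKM + 1) of genes averaging at least 1 FPKM and had no term but the group, a mean-variance trend and two-sided tests with Benjamini-Hochberg adjustment over all tested genes. The script was tested on simulated data. Columns carry the numbers 0 to 2 and the labels 1 to 3, so columns were assigned to groups and not to single samples. Deviations from the group mean were correlated between same-numbered libraries (r = 0.252, 0.377 and 0.348, against −0.387 to 0.0654 for other pairs). The deviations of a gene within a group sum to 0, so positive same-numbered pairs make the other pairs negative on balance. The contrast with other pairs is therefore partly fixed in advance. The same-numbered values pass the rule of over 0.1 in every pair, although no label says what the numbers mark. The replicate block was an alternative, beside another pseudocount (0.1), no filter, a filter of 5 FPKM, 3 other scalings, no trend, and leaving out each library.

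The members and gene lists were chosen with earlier results of these data known, and substrate classes of some genes were set after the symbols were seen. Named genes are those called with at least 5 FPKM in the higher group that changed most in each class, the 2 of highest level per class, and a fixed list of known carriers. Coordinates are from GENCODE on GRCm38, and promoters from RefSeq on GRCm38.p6. Some genes are not reported here.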

Additional observations from a re-analysis of the deposited data

How the results depend on the processing

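Of the 80 called members, 24 lost their call in at least 1 of the 15 alternatives and 0 changed direction. The filter at 5 FPKM left 23 of the 80 unfitted. Of the 57 fitted in every alternative, 39 kept their call in all, and 17 others kept it in every alternative that fitted them. With the replicate block, 63 members were higher and 31 lower, and a single call was lost. Over all tested genes the block gave 3066 higher and 3335 lower. Among related transport genes the block gave 8 falls in place of 5. With a mean of at least 5 FPKM, which leaves fewer genes tested, the amino acid carriers held 5 rises and the mitochondrial carriers 7. Over all genes tested at that filter, 1871 were higher and 2471 lower. With a common total, the amino acid carriers held 1 fall, the metal carriers 8 rises and the related genes 2 falls. On that scale 3053 of all tested genes were higher and 2082 lower. With a common upper quartile, the amino acid carriers held 1 fall and the related genes 3, where 2863 of all tested genes were higher and 2403 lower. The median difference of all tested genes was −0.01 as deposited, 0.08 with a common total and 0.04 with a common upper quartile. For the members it was 0.11, 0.20 and 0.17. The cause of the changed counts was not tested. With single libraries left out, 37 to 51 members were higher and 21 to 29 lower, where 1634 to 2479 of all tested genes were higher and 2057 to 2695 lower. In the same fits, falls of amino acid carriers ran from 1 to 3, rises of metal carriers from 3 to 5, rises of mitochondrial carriers from 6 to 10, and falls of related genes from 2 to 5. The values without both libraries numbered 2, and without the 5 symbols that name no transporter (51 higher, 27 lower), were added after seeing the data. With 3 libraries a group and unknown depth, differences in genes near 1 FPKM rest on values of unknown precision.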
